A study of Homo sapiens with 36 samples.

Results

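Messenger RNA of the TGF-beta pathway was followed through knockdown of the transcriptional co-activators YAP and TAZ and of the DNA-binding factors STAT3, JUNB and the TEAD family in 2 human breast cell lines. The 10 genes were named by function, with earlier results of these data known: the ligands TGFB1, TGFB2 and TGFB3 and the activin subunit INHBA, the receptors TGFBR1, TGFBR2 and TGFBR3, the signal transducer SMAD3, the inhibitor SMAD7 and the response gene TGFBI. They are 10 of 60725 Ensembl genes, and each was read in all 36 libraries, which form 18 groups of 2. In MCF-10A ER-Src, a non-transformed breast epithelial line with v-Src fused to the ligand-binding part of the estrogen receptor, cells were labelled as having had tamoxifen (TAM), which turns v-Src on, or ethanol (ETH), the vehicle. The treatment protocol names tamoxifen together with AZD0530, a Src kinase inhibitor, and which libraries had AZD0530 is not given in the sources used here, so TAM below stands for the label and any AZD0530 in it cannot be told apart from tamoxifen. Each treatment was combined with a control siRNA (Ctrli) or siRNA against YAP (YAPi), TAZ (TAZi), STAT3 (STAT3i) or JUNB (JUNBi), and every group of this line carries the fusion. MDA-MB-231, a triple-negative breast cancer line, was measured in 2 sets with no TAM or ETH in their labels. Set 1 held Ctrli, YAPi, TAZi, YAPi_TAZi (both siRNAs) and TEADi (siRNA against the TEAD family), and set 2 held Ctrli, JUNBi and STAT3i. The hours of TAM behind each library are not given in the sources used here, and nothing says that the 2 libraries of a group came from separate cultures, so p-values measure the spread between these libraries.

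TGF-beta ligands are secreted in a latent complex and, once freed, bind the type II receptor TGFBR2, which recruits and phosphorylates the type I receptor TGFBR1. TGFBR3, or betaglycan, is a co-receptor that presents ligand, above all TGFB2. Active TGFBR1 phosphorylates SMAD2 and SMAD3, which enter the nucleus with SMAD4 and act beside other DNA-binding factors, AP-1 among them. SMAD7 is induced by the pathway and blocks the type I receptor. TGFBI, an extracellular matrix protein, is a classical transcript of the response, and INHBA encodes the subunit of activin A, a ligand that signals through the same SMADs from its own receptors. In breast epithelium the pathway restrains growth, while in breast cancer cells it is known for invasion and loss of epithelial character.

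Estimated counts per library summed to between 6419720 and 19161700 for ER-Src, 13456784 and 13534560 for the set 1 controls, 1411304 to 2784605 for the set 1 knockdowns and 7290499 to 18076158 for set 2. A group of 6 RNAs without a poly(A) tail, RN7SL1 among them, held 9.43% to 11.7% of the counts of ER-Src and 8.71% to 11.8% of those of the set 1 knockdowns, while the set 1 controls and set 2 had at most 0.0112%. Knockdown and library type therefore cannot be told apart wherever a set 1 knockdown is compared with the set 1 controls. Replicate 1 of all 4 set 1 knockdowns also stood apart, with 5.99 to 11.49 TPM of KRT5, the basal keratin, and 0.49 to 2.57 TPM of ESR1, against 0 and at most 0.10 TPM in the 4 replicate 2 libraries. Gene length less effective length, as a median over longer genes, was 48 bases in these replicate 1 libraries. It was 74.56 to 74.57 bases in replicate 2 of the knockdowns and 75 bases in the set 1 controls. The part of this difference in the set 1 results was not tested. ER-Src held KRT5 at 1012 to 2622 TPM, as a basal epithelial line should, and MDA-MB-231 held none in set 2. The mesenchymal marker SPARC was at most 1.12 TPM in MDA-MB-231, while VIM was at 369 TPM or more. Each siRNA lowered its own target, with YAP1 down by 2.38 to 2.65 on the log2 scale over 4 comparisons, except that JUNB in JUNBi ETH (log2 change -1.16) missed the threshold with an adjusted p of 0.064, and STAT3 in set 2 (log2 change -2.41) had no adjusted p. In TEADi, TEAD3 fell by 1.62, but it fell by 1.24 to 1.53 in the other set 1 knockdowns as well, and TEADi against those 3 gave -0.27 (adjusted p = 0.79), so its fall cannot be credited to its own siRNA. Against the same 3, TEAD1 fell by 1.23 (adjusted p = 1.9e-06) and TEAD2 by 3.39 (adjusted p = 0.0032).

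In per-length units, TGFBI stood above the other 9 members in every library except the set 1 controls, where TGFBR2 was as high. Values in TPM divide the estimated count by gene length and by the library's sum of such quotients, so they allow levels of different genes to be compared within a library. In the 20 ER-Src libraries, TGFBI had a median of 676 TPM (277 to 1225), TGFBR2 14.04 TPM (8.51 to 20.2) and TGFBR1 3.61 TPM (2.27 to 7.35), and these 3 ranges did not overlap. Below them came SMAD3 with a median of 3.01 TPM, TGFB2 with 2.65 TPM, TGFBR3 with 2.265 TPM, SMAD7 with 1.245 TPM, TGFB1 with 1.235 TPM, INHBA with 1.105 TPM and TGFB3 with 0.605 TPM. From TGFBR1 down, the range of each gene overlapped that of the next, so their order is not fixed. TGFB2 ran from 1.09 to 12.5 TPM and INHBA from 0.39 to 4.45 TPM.

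MDA-MB-231 held more SMAD3 than ER-Src in every library, and more TGFB1 in all but 1 of the set 1 knockdown libraries. TGFB1 was at 48.5 to 76.4 TPM in set 2, 56.0 and 57.1 TPM in the set 1 controls and 2.00 to 8.70 TPM in the set 1 knockdowns, against 0.71 to 2.05 TPM in ER-Src. SMAD3 was at 20.0 to 28.4 TPM in set 2 and 10.8 to 54.2 TPM in set 1, against 1.64 to 5.41 TPM in ER-Src. The control libraries of the MDA-MB-231 sets differed from each other, although they have the same cell line and siRNA. TGFBR2 was at 100 and 102 TPM in the set 1 controls and at 7.23 and 2.59 TPM in the set 2 controls. TGFB2 was at 19.7 and 17.8 TPM in set 1 and at 4.73 and 4.6 TPM in set 2, and TGFBI was lower in set 1, at 90.5 and 101 TPM, than in set 2, at 296 and 192 TPM. These levels are given as a description with no test, since line, set and library type differ together.

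**Figure D1:**
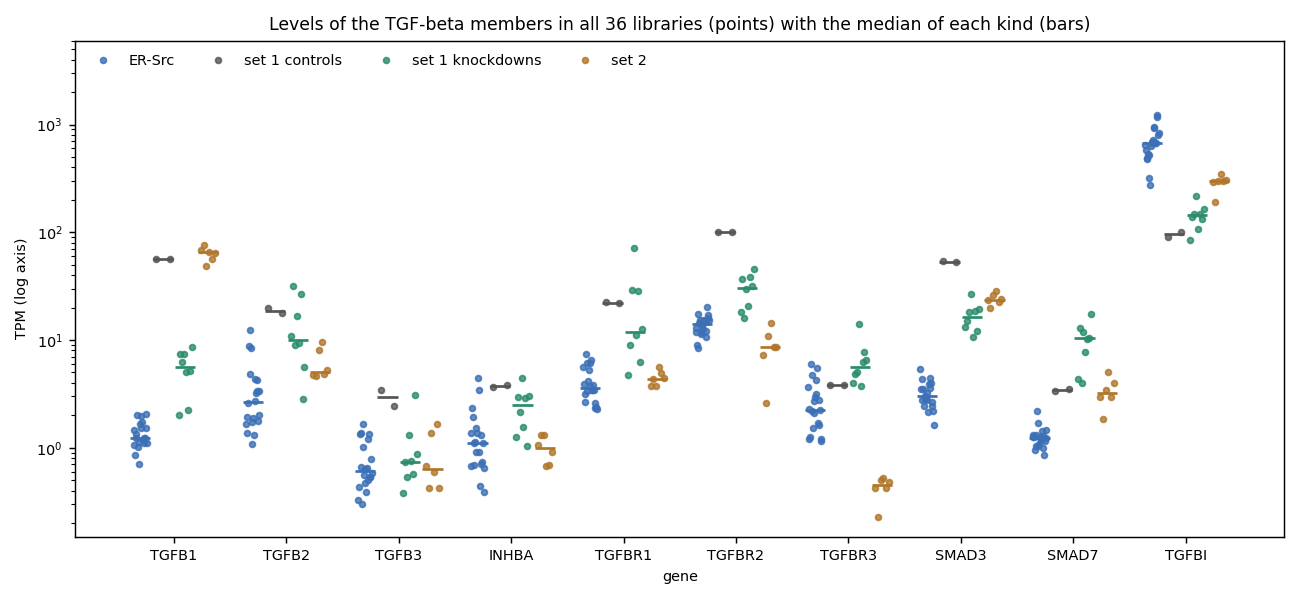
TPM of each member (log axis) in all 36 libraries, with 1 point per library and bars at the median of the 20 ER-Src, 2 set 1 control, 8 set 1 knockdown and 6 set 2 libraries. TGFBI has the highest median in all but the set 1 controls, where TGFBR2 is as high, and TGFB1 is near 1 TPM in ER-Src but at 48.5 to 76.4 TPM in set 2.

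The annotation (GENCODE version 44, GRCh38) places TGFB1 at chr19:41301587-41353922, TGFB2 at chr1:218345336-218444619, TGFB3 at chr14:75958097-75983011 and INHBA at chr7:41667168-41705834. The receptors TGFBR1, TGFBR2 and TGFBR3 lie at chr9:99104038-99154192, chr3:30606601-30694142 and chr1:91680343-91906335, SMAD3 at chr15:67063763-67195173, SMAD7 at chr18:48919853-48950965 and TGFBI at chr5:136028988-136063818. TGFB2 shares 1371 exonic bases with TGFB2-OT1, a transcript on the same strand, and TGFB1 shares 215 exonic bases with HNRNPUL1 on the opposite strand. How strand was used in counting is not stated, so reads in these stretches can be split between the partners. HNRNPUL1 held more counts than TGFB1 in all 36 libraries, and TGFB2-OT1 held 0.409 to 1.02 times the counts of TGFB2 in set 2 but at most 0.2 times elsewhere.

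TGFBI and INHBA were called most often among the 13 ER-Src comparisons described below, in 5 and 3 of them, and TGFB2 had the largest change among the calls that were kept without any 1 library. The 250 bases before their RefSeq starts (GRCh38.p14) are shown, a choice made after these values were seen, because JUNB (as part of AP-1), STAT3, the SMADs and the TEAD proteins, which bring YAP and TAZ to DNA, bind known short motifs, with any match in capitals. The motifs searched on both strands were TGANTCA (AP-1), GGAATG (TEAD), CAGAC (SMAD) and TTCNNNGAA (STAT), and none of them overlapped another in these windows.
TGFBI, chr5:136028738-136028987, plus strand: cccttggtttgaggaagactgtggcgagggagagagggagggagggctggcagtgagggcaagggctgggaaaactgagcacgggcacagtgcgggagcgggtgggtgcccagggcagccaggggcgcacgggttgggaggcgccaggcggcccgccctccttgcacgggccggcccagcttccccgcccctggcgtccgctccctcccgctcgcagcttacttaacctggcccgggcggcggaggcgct
INHBA, chr7:41703091-41703340, minus strand: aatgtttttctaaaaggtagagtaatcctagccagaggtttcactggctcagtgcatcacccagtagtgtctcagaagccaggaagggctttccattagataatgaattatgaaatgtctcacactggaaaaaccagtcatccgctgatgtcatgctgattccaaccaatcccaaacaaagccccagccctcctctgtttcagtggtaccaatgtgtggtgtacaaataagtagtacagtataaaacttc
TGFB2, chr1:218345086-218345335, plus strand: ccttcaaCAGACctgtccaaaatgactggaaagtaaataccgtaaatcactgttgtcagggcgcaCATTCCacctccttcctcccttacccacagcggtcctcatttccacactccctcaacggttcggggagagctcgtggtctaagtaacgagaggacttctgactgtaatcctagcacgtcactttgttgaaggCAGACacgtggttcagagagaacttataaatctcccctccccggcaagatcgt
The TGFB2 window held 1 TEAD match, in its reverse complement, and 2 SMAD matches, while the other 2 windows held no match. Among 35116 human promoters of this length, 6.57% held the AP-1 motif, 11.9% the TEAD motif, 38% the SMAD motif and 6.57% the STAT motif. Over the 25 RefSeq starts of the 10 members, 1 held AP-1, 2 held TEAD, 10 held SMAD and 1 held STAT. A match is a description of these letters and says nothing about binding.

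With the control siRNA, TAM raised the ligand genes TGFB3 and INHBA and changed no receptor, SMAD or TGFBI past the threshold. Of all genes with an adjusted p in this comparison, 6.21% were called at an adjusted p under 0.01, against 2 of the 10 members. Values are normalized counts, which are counts divided by the size factor of each library. TGFB3 stood at 13.2 and 16.1 in the ETH libraries and at 80.2 and 63.4 in the TAM libraries. The difference was 2.31 on the log2 scale (SE 0.62, adjusted p = 0.0033), or 4.97-fold, with no overlap between the groups. Here and below, a lack of overlap between 2 and 2 libraries says little by itself. It was seen for 5 to 9 of the 10 members in each ER-Src comparison. In STAT3i ETH it was seen for 6, although 0 members reached an unadjusted p under 0.05 there. INHBA stood at 114 and 74.9 in ETH and at 226 and 209 in TAM, a log2 change of 1.21 (SE 0.34, adjusted p = 0.0063). Both genes were higher in 2 of 2 TAM libraries than in either ETH library. Both calls were lost when any 1 of the 4 libraries was left out, with log2 changes of 2.11 to 2.46 for TGFB3 (adjusted p 0.111 to 0.52) and 0.94 to 1.54 for INHBA (adjusted p 0.0626 to 0.528). TGFB3 was also not called with offsets from effective lengths (adjusted p = 0.0213), nor INHBA with 1 fit over all ER-Src groups (adjusted p = 0.0116).

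Among the members that missed the threshold under TAM, the co-receptor TGFBR3 was at 273 and 277 in ETH and 163 and 178 in TAM (log2 change -0.68, adjusted p = 0.10). It was called with 1 fit over all ER-Src groups (-0.70, adjusted p = 0.000601). TGFB2 was at 115 and 115 in ETH and 164 and 244 in TAM (log2 change 0.83, adjusted p = 0.12). Both pairs of groups did not overlap. TGFBI, the response gene, was at 30020 and 33230 in ETH and 27910 and 31370 in TAM, and the groups overlapped. The 95% interval of its log2 change reached only to 0.10 on the upper side, with an estimate of -0.08.

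**Figure D2:**
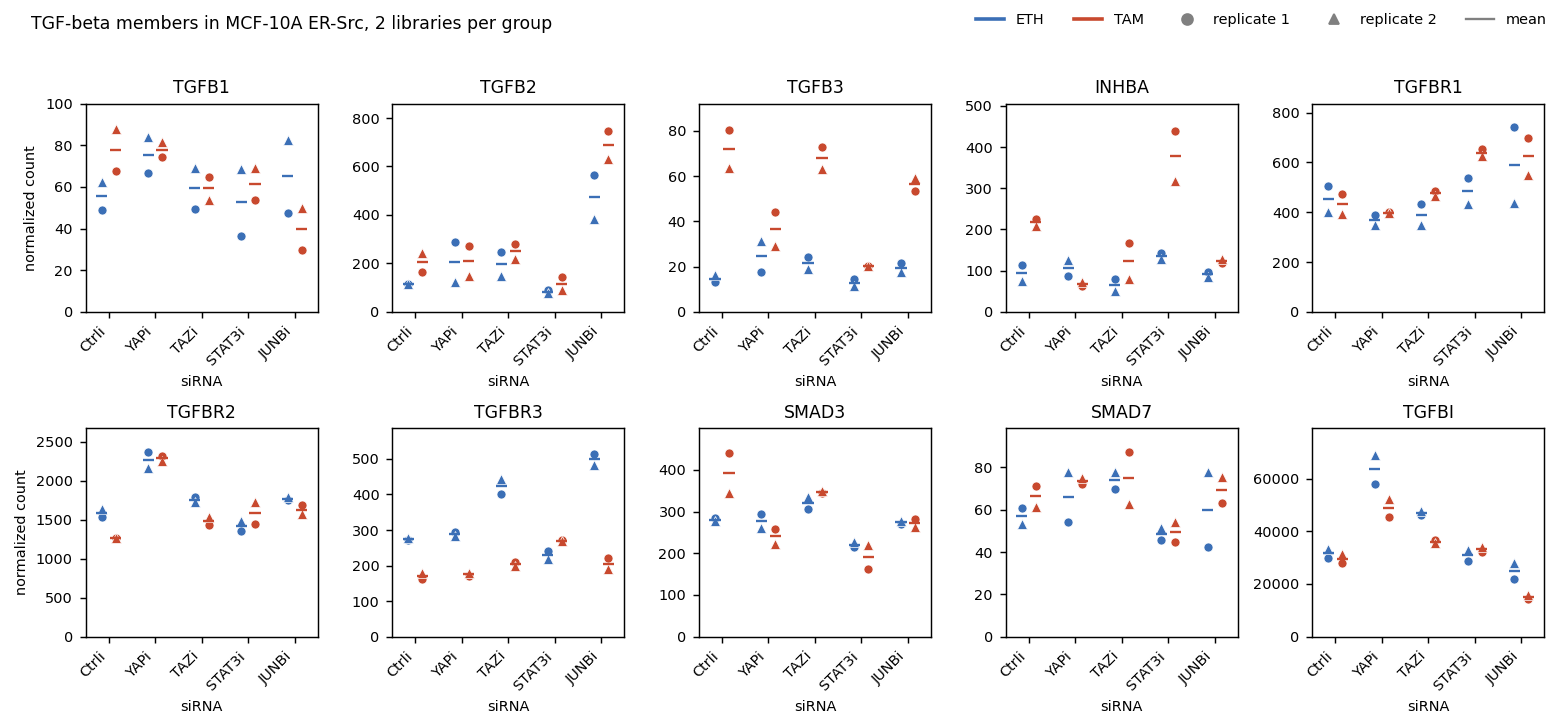
Normalized counts of the 10 members in the 20 ER-Src libraries by siRNA, with ETH in blue and TAM in red, circles and triangles for replicates 1 and 2 and bars for the mean of 2. TGFB2 is highest in JUNBi under both treatments, and TGFBI is highest in YAPi and lowest in JUNBi TAM.

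YAP knockdown raised TGFBI and the type II receptor gene TGFBR2 under both treatments, and under TAM it lowered INHBA. In TAM, 3 of 10 members were called against 10.7% of all genes, and in ETH 2 of 10 against 11.6%. TGFBI was at 45640 and 52200 in YAPi TAM against 27910 and 31370 in Ctrli TAM, a log2 change of 0.73 (SE 0.11, adjusted p = 3e-09). In ETH it was at 57870 and 69240 against 30020 and 33230, a log2 change of 1.00 (SE 0.11, adjusted p = 3.2e-17). All 4 YAPi libraries lay above all 4 Ctrli libraries, and both calls were kept without any 1 library. TGFBR2 was at 2317 and 2256 in YAPi TAM against 1268 and 1269 in Ctrli TAM, a log2 change of 0.86 (SE 0.12, adjusted p = 2e-10), and that call was also kept without any 1 library. In ETH it was at 2374 and 2164 against 1534 and 1634, a log2 change of 0.51 (SE 0.12, adjusted p = 0.0005). TGFBR2 thus stood at like levels in all 4 YAPi libraries. The ETH call was lost without Ctrli ETH replicate 1 (adjusted p = 0.208), Ctrli ETH replicate 2 (0.0878) or YAPi ETH replicate 1 (0.078), with log2 changes of 0.43 to 0.55. TGFB2 was at 290 and 125 in YAPi ETH against 115 and 115 (log2 change 0.86, adjusted p = 0.094). Without YAPi ETH replicate 2, the library at 125, the log2 change was 1.34. That fit leaves a lone YAPi ETH library and is no support for a change.

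INHBA was at 62.8 and 71.5 in YAPi TAM against 226 and 209 in Ctrli TAM, a log2 change of -1.68 (SE 0.32, adjusted p = 5e-06). Its YAPi TAM level was thus below both Ctrli ETH libraries, at 114 and 74.9. The call was lost when any 1 of the 4 libraries was left out, with log2 changes of -1.78 to -1.57 and adjusted p of 0.0132 to 0.0664. In ETH, INHBA was at 86.9 and 126 with YAPi (log2 change 0.15, adjusted p = 0.87), and the groups overlapped. The difference between the TAM and the ETH effect, tested as an interaction, was -1.84 on the log2 scale (SE 0.47, adjusted p = 0.016) and missed the threshold. SMAD3 was at 258 and 222 in YAPi TAM against 440 and 344 (log2 change -0.71, adjusted p = 0.025), and was called with 1 fit over all groups (adjusted p = 0.000914).

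TAZ knockdown raised TGFBI in ETH, where 1 of 10 members was called against 5.24% of all genes, and called no member in TAM. In ETH, TGFBI was at 46340 and 47880 against 30020 and 33230 in Ctrli, a log2 change of 0.57 (SE 0.09, adjusted p = 1e-07). In TAM it was at 36650 and 35410 against 27910 and 31370, a log2 change of 0.28 (adjusted p = 0.026), and these groups did not overlap either. The TAM difference was called with TMM size factors (0.30, adjusted p = 0.00782) and with effective-length offsets (0.39, 0.00511). The ETH call was lost without Ctrli ETH replicate 1 (log2 change 0.49, adjusted p = 0.0393) and with edgeR (adjusted p = 0.0221). In TAZi TAM, where 3.42% of all genes were called, DESeq2 gave 0 of 10 members, 2 at an unadjusted p under 0.05 (INHBA and TGFBI), and edgeR gave 0. The interaction of TAZi with treatment was -0.30 on the log2 scale for TGFBI (adjusted p = 0.11).

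DCN (decorin, a matrix proteoglycan that binds TGF-beta), 1 of 5 fibroblast markers, was higher in the knockdowns in which TGFBI was higher, and its part in these results was not tested. The summed TPM of 5 such genes was 59.0 to 68.5 in the Ctrli libraries. It was 148 to 262 with YAPi and 139 to 214 with TAZi, against 36.5 to 50.6 with JUNBi and 30.9 to 74.1 with STAT3i. That sum is nearly all DCN, while COL1A1, COL3A1 and PDGFRB were at most 0.66 TPM and LUM at most 4.46 TPM in ER-Src. Between treatments the log2 changes of DCN and TGFBI differed in sign, since TAM against ETH gave DCN 0.70 in YAPi (adjusted p = 3.7e-08) and 0.73 in TAZi (adjusted p = 5.7e-11), and TGFBI -0.38 (adjusted p = 0.044) and -0.39 (adjusted p = 3.8e-05). The leukocyte markers PTPRC and CD3E were at most 0.08 and 0.01 TPM there, while CD14, of the same list, was at 3.01 to 9.6 TPM. In bulk RNA, more cells of a type and more RNA per cell cannot be told apart.

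With STAT3 knockdown, SMAD3 was lower under TAM and no member was called under ETH. Median gene length less effective length was 49 bases in the STAT3i libraries and 49.49 bases in the Ctrli libraries. What lies behind this small difference was not tested. In TAM, 1 of 10 members was called against 8.22% of all genes. SMAD3 was at 161 and 219 in STAT3i TAM against 440 and 344 in Ctrli TAM, a log2 change of -1.03 (SE 0.26, adjusted p = 0.0013). The STAT3i TAM libraries lay below all 4 Ctrli libraries, the ETH ones at 284 and 278 included. This call was lost without any 1 of the 4 libraries (log2 changes of -1.24 to -0.82, adjusted p 0.0131 to 0.359) and with offsets from effective lengths (log2 change -0.77, adjusted p = 0.0763). TGFB3 was at 20.4 and 20.2 in STAT3i TAM against 80.2 and 63.4 in Ctrli TAM (log2 change -1.81, SE 0.56, adjusted p = 0.013). INHBA was at 440 and 319 against 226 and 209 (log2 change 0.82, SE 0.26, adjusted p = 0.015). The pair of ligand genes that TAM raised in Ctrli thus differed in sign under STAT3i, TGFB3 lower and INHBA higher, and neither difference passed the threshold. TGFB3 did pass with edgeR (-1.83, adjusted p = 0.00297), with a mean count of at least 10 (0.00553) and with 1 fit over all groups (0.000404), and INHBA with TMM size factors (0.88, 0.0096). In STAT3i ETH, 0.189% of all genes were called, and DESeq2 gave 0 of 10 members, 0 at an unadjusted p under 0.05, and edgeR gave 0.

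With JUNB knockdown, TGFB2 was higher under both treatments and TGFBI was lower under TAM. Median gene length less effective length was 49 bases in the JUNBi libraries, as in STAT3i, and 49.49 bases in the Ctrli libraries. In TAM, 2 of 10 members were called against 6.9% of all genes, and in ETH 1 of 10 against 2.8%. TGFB2 was at 748 and 629 in JUNBi TAM against 164 and 244 in Ctrli TAM, a log2 change of 1.80 (SE 0.24, adjusted p = 6.7e-12), about 3.47-fold. In ETH it was at 565 and 385 against 115 and 115, a log2 change of 2.03 (SE 0.33, adjusted p = 2.3e-07). All 4 JUNBi libraries lay above the 16 other ER-Src libraries, of which the highest had 290. The TAM call was kept without any 1 library. The ETH call was lost without Ctrli ETH replicate 1 (adjusted p = 0.0241) or replicate 2 (adjusted p = 0.0194), both at a log2 change of 2.03, and with edgeR (adjusted p = 0.0391).

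TGFBI was at 14320 and 15640 in JUNBi TAM against 27910 and 31370 in Ctrli TAM, a log2 change of -0.96 (SE 0.11, adjusted p = 2.3e-16), and the call was kept without any 1 library. In ETH it was at 21820 and 27800 against 30020 and 33230, a log2 change of -0.36 (adjusted p = 0.54). Without JUNBi ETH replicate 2, the library at 27800, the log2 change was -0.54. JUNBi TAM held the lowest TGFBI of the 10 groups, and YAPi ETH the highest. The interaction of JUNBi with treatment for TGFBI was -0.62 on the log2 scale (SE 0.24, adjusted p = 0.42), and was called without JUNBi ETH replicate 1 (-0.79, adjusted p = 8.89e-05). TGFBR3 in JUNBi ETH was at 515 and 484 against 273 and 277 in Ctrli ETH (log2 change 0.85, adjusted p = 0.052). JUNB RNA also fell in STAT3i TAM, by 2.41 on the log2 scale, against 2.03 in JUNBi TAM. In STAT3i TAM the means were 116.6 for TGFB2 and 33290 for TGFBI, against 203.9 and 29640 in Ctrli TAM. Neither gene was called there. How far the JUNBi differences follow from the fall of JUNB was not tested.

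The response to TAM was also measured within each knockdown. TGFBR3 fell with TAM in TAZi and JUNBi, TGFBI fell in TAZi, and INHBA rose in STAT3i. A TGFBI difference in JUNBi was larger than that in TAZi, but missed the threshold. In TAZi, where 2 of 10 members were called against 7.13% of all genes, TGFBR3 went from 401 and 445 in ETH to 209 and 200 in TAM, a log2 change of -1.05 (SE 0.22, adjusted p = 6.3e-05). In JUNBi, where 1 of 10 was called against 2.13%, it went from 515 and 484 to 221 and 189, a log2 change of -1.28 (SE 0.30, adjusted p = 0.0011). TGFBR3 was lower in TAM than in ETH in Ctrli, YAPi, TAZi and JUNBi, with no overlap in any of these 4, but the Ctrli and YAPi differences missed the threshold (YAPi: 294 and 282 in ETH, 172 and 180 in TAM, adjusted p = 0.036, and 5.07e-05 with 1 fit over all groups). In STAT3i it was at 242 and 219 in ETH and at 271 and 268 in TAM. The interaction of STAT3i with treatment for TGFBR3 was 0.91 on the log2 scale (SE 0.34, adjusted p = 0.23) and not called, whereas with 1 fit over all groups it was 0.92 and called (adjusted p = 0.00184).

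INHBA went from 144 and 129 in STAT3i ETH to 440 and 319 in STAT3i TAM, a log2 change of 1.47 (SE 0.29, adjusted p = 0.00011), where 1 of 10 members was called against 0.793% of all genes. TGFBI went from 46340 and 47880 to 36650 and 35410 in TAZi (log2 change -0.39, SE 0.08, adjusted p = 3.8e-05). In JUNBi, TGFBI went from 21820 and 27800 in ETH to 14320 and 15640 in TAM, with no overlap (log2 change -0.72, SE 0.24, adjusted p = 0.073). It was called with 1 fit over all groups (-0.73, adjusted p = 1.75e-06) and without JUNBi ETH replicate 1 (-0.87, 4.28e-06). With 1 library left out, which leaves its group with a lone library, the 4 calls kept their direction and much of their size while the adjusted p rose. The TGFBR3 call in TAZi was lost without any 1 of its 4 libraries (log2 changes of -1.12 to -0.97, adjusted p 0.0146 to 0.0825). The others were lost without either TAM library. TGFBR3 in JUNBi then had log2 changes of -1.38 and -1.17 (adjusted p = 0.2 and 0.522), TGFBI in TAZi -0.40 and -0.36 (0.0817 and 0.188), and INHBA in STAT3i 1.22 and 1.69 (1.0 and 0.0292). With edgeR, TGFBR3 in JUNBi (adjusted p = 0.0486) and INHBA in STAT3i (adjusted p = 0.0846) were not called, and TGFBI in TAZi was not called with effective-length offsets (0.0184) or 1 fit over all groups (0.0395). In YAPi, where 4.5% of all genes were called, DESeq2 gave 0 of 10 members, 2 at an unadjusted p under 0.05 (TGFBR3 and TGFBI), and edgeR gave 0. With the replicate number as a block, TGFBI was called there (-0.37, adjusted p = 1.17e-06).

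As interactions, the 4 knockdowns gave no called member, against 0.498% of all genes for YAPi, 1.6% for TAZi, 1.34% for STAT3i and 0.288% for JUNBi. For TAZi only 2 of the 10 members had an adjusted p, so the other 8 could not be called. Its share is over 4424 genes, against 15650 for YAPi. Of 32 member tests with an adjusted p, DESeq2 called 0, edgeR called 0, and an unadjusted p under 0.05 was reached by 4 members for YAPi, 3 for STAT3i and 1 each for TAZi and JUNBi. INHBA in YAPi, given above, came nearest to the threshold, and was called with a mean count of at least 10 (-1.85, adjusted p = 0.00575). A knockdown effect called in 1 treatment only, such as that on SMAD3 in STAT3i TAM (interaction -0.71 on the log2 scale, adjusted p = 0.70), is therefore not shown to differ between TAM and ETH.

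Over the 13 ER-Src comparisons, which share libraries with each other, 16 of 130 member tests were called. The share of all genes called ran from 0.189% (STAT3i ETH) to 11.6% (YAPi ETH) by comparison. Of the 16 member calls, 12 were also made with edgeR. Without any 1 library, 5 of the 16 were kept, which are those on TGFBI and TGFBR2 in YAPi TAM, TGFBI in YAPi ETH and TGFB2 and TGFBI in JUNBi TAM. TGFB1, TGFBR1 and SMAD7 were called in none of the 13. TGFB1 ran only from 29.8 to 88.0 normalized counts over the 20 libraries and SMAD7 from 42.2 to 87.3. TGFBR1 ran from 347 to 740.5, highest in a JUNBi ETH library.

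**Figure D3:**
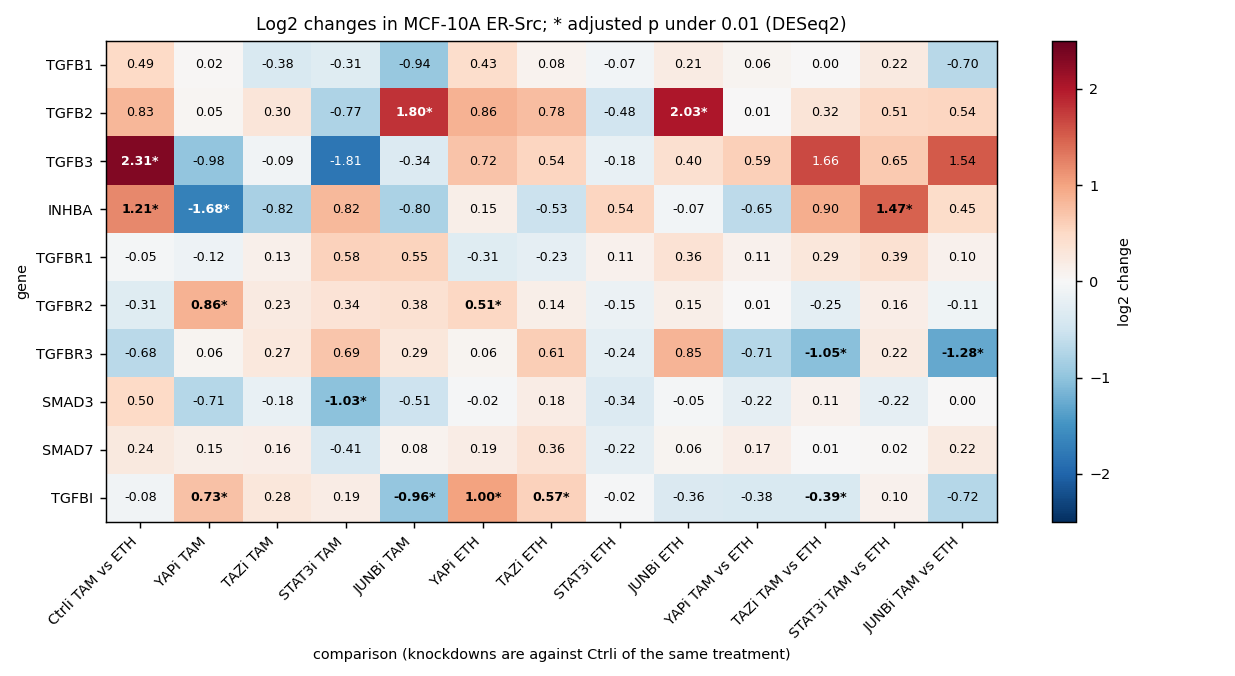
Log2 changes of the 10 members (rows) in the 13 ER-Src comparisons (columns), in which red is higher, blue is lower and an asterisk marks a DESeq2 adjusted p under 0.01. The 16 marked cells include TGFBI in 5 columns, and TGFB1, TGFBR1 and SMAD7 have none.

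The rest of the pathway was read through 97 genes in 6 lists. With the control siRNA, TAM raised 14 and lowered 2 of the 75 with an adjusted p, against 4.62% and 1.59% of all genes. Among response genes 9 of 30 rose and 1 fell, with a median log2 change of 0.36 for the list and -0.02 for all genes. TNC (tenascin C, a matrix protein) rose by 6.78 on the log2 scale, SNAI1 (an inducer of epithelial-mesenchymal transition) by 4.80 and JUNB by 2.51. In the latency and activation list, ITGB6 (a subunit of the integrin that frees latent TGF-beta) rose by 3.29 and LTBP1 (a latent TGF-beta binding protein) by 0.79, while THBS1 (thrombospondin, an activator of latent TGF-beta) fell by 1.33. Inhibitors rose too, BAMBI (a decoy receptor) by 2.60 and FSTL3 (an activin-binding protein) by 1.23, and so did the activin receptor ACVR1B. Of 17 genes of the SMAD list with an adjusted p, DESeq2 called 0, although SKI, SMURF2 and TGIF1 reached an unadjusted p under 0.05. With edgeR 1 of 16 was called, TGIF1 (a SMAD corepressor), at a log2 change of 0.6 (edgeR adjusted p = 0.0044, DESeq2 adjusted p = 0.026), and it is named here after its values were seen.

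STAT3 knockdown in TAM lowered 14 and raised 7 of 71, against 4.88% and 3.34% of all genes. JUNB knockdown in TAM lowered 15 and raised 3 of 68, against 4.06% and 2.84%. In STAT3i TAM, TNC fell by 4.39 on the log2 scale, JUNB by 2.41, BAMBI by 2.27, ITGB6 by 1.78 and ACVR1B by 1.48, while THBS1 rose by 1.46. For several of these the difference between TAM and ETH was itself called, with an interaction of -4.78 for TNC, -2.19 for JUNB, -2.51 for BAMBI, -1.97 for ITGB6 and 1.27 for THBS1. In JUNBi TAM, BAMBI fell by 2.31, TNC by 1.52, ITGA5 (a fibronectin receptor subunit) by 1.43 and LTBP1 by 1.28, while THBS1 rose by 0.78. JUNB, which fell by 2.03, is both a gene of the response list and the target of that siRNA. The response list had a median log2 change of -0.30 in STAT3i TAM and -0.47 in JUNBi TAM, against 0.03 and 0.02 for all genes.

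YAP and TAZ knockdown moved list genes in both directions in TAM and mostly upward in ETH. In YAPi TAM 10 rose and 7 fell of 74 (5.27% and 5.4% of all genes), and in TAZi TAM 6 rose and 3 fell of 71 (1.75% and 1.68%). In YAPi ETH 14 rose and 1 fell of 73 (5.11% and 6.47% of all genes), and in TAZi ETH 10 rose and 2 fell of 71 (2.6% and 2.64%). DCN rose in all 4, by 2.15 on the log2 scale in YAPi TAM, 1.76 in TAZi TAM, 1.87 in YAPi ETH and 1.46 in TAZi ETH. ITGB8, another integrin subunit that frees latent TGF-beta, rose by 0.81 in YAPi TAM and 1.16 in TAZi TAM. ID3, a target of BMP signaling, rose by 1.55 and 1.34 in the same comparisons. In STAT3i ETH, DESeq2 called 0 of 81 list genes and edgeR 0 of 71, while DCN, FN1 and SKIL, which are 3 of the 81, reached an unadjusted p under 0.05. In JUNBi ETH 2 rose and 2 fell of 73, against 1.19% and 1.61% of all genes.

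Other genes shared the pattern of a member over the 20 ER-Src libraries. Among 9936 genes, TGFBI was most like COL17A1 (collagen XVII, a hemidesmosome component, r = 0.963) and TMEM164 (r = 0.95), TGFBR1 like SNX13 (r = 0.941), TGFBR2 like PDPK1 (r = 0.933), and TGFBR3 like TSPYL2 (r = 0.925) and THBS1 (r = 0.922). TGFB2 was most like PDE4B (r = 0.894), INHBA like GDA (r = 0.887), SMAD3 like MLLT6 (r = 0.881), SMAD7 like LTBR (r = 0.878) and TGFB1 like the pseudogene RPL15P3 (r = 0.894). No gene was sought for TGFB3, whose mean was under 1 TPM. These correlations are of log2 normalized counts, the points share siRNAs, treatments and size factors, and each gene named is the highest of many.

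In MDA-MB-231 set 1, most members differed between each knockdown and the controls, in largely the same direction whichever factor was targeted. Of 40 member tests 31 were called, 19 higher and 12 lower, against 24.4% (YAPi), 32.8% (TAZi), 35.6% (YAPi_TAZi) and 27.5% (TEADi) of all genes, and the library types named above differ between the same groups. By direction, the shares of all genes higher and lower were 12.4% and 12.1% in YAPi, 16% and 16.8% in TAZi, 17.3% and 18.2% in YAPi_TAZi, and 13.5% and 14% in TEADi. TGFBI was at 322 and 358 in the controls and at 940 to 1991 in the 8 knockdown libraries, with log2 changes of 1.51 to 2.45. SMAD7 was at 14.4 and 16.4 in the controls and at 68.1 to 132 in the knockdowns, with log2 changes of 2.19 to 3.02. TGFBR3 was at 43.0 and 43.5 in the controls and at 92.9 to 245 in the knockdowns. In normalized counts, these 3 genes were higher in all 8 knockdown libraries, while TGFB1 and SMAD3 were lower in all 8. TGFB1 was at 188 and 198 in the controls and at 13.1 to 55.0 in the knockdowns, with log2 changes of -3.06 to -2.07, and SMAD3 was at 542 and 530 in the controls and at 262 to 384 in the knockdowns. In TPM, SMAD7 stayed higher and TGFB1 and SMAD3 lower in all 8, but TGFBI and TGFBR3 did not stay higher in all. Their lowest values in set 1, 84.64 and 3.77 TPM, were in knockdown libraries, against control means of 95.51 and 3.85 TPM. INHBA and TGFB2, called higher in TEADi, had mean levels of 3.285 and 12.89 TPM there. The control means were 3.73 and 18.75 TPM. The 6 RNAs without a poly(A) tail took 16.4% to 42.6% of the TPM in the set 1 knockdowns and at most 0.0268% in the set 1 controls. Less of the TPM total is thus left to every other gene in the knockdowns, and TPM is not like for like between these groups. The control libraries of set 2, which also lacked those RNAs without a poly(A) tail, had TGFB1 at 68.5 and 76.4 TPM. They had a mean of 4.91 TPM of TGFBR2, against 101 TPM in the set 1 controls. The part of library type in these levels was not tested.

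Without replicate 1 of the knockdown concerned, 28 of the 31 calls were kept. The 3 lost were INHBA in TAZi (log2 change 0.90, adjusted p = 0.172), TGFBR1 in TAZi (-0.48, 0.022) and TGFB2 in YAPi_TAZi (-0.66, 0.102). Without Ctrli replicate 1, 20 calls were left, and those lost were on TGFBR3 and SMAD3 in YAPi, INHBA and all 3 receptors in TAZi, TGFB2 in YAPi_TAZi, and TGFB2, INHBA, TGFBR2 and SMAD3 in TEADi. Without Ctrli replicate 2, TGFB2 in YAPi was lost as well, which left 19. Without the knockdown's replicate 2, the calls on TGFBR3 in YAPi (adjusted p = 0.0695), INHBA in TAZi (0.0409) and TGFB2 in YAPi_TAZi (0.0531) were lost. With the controls of both sets together 10 calls were left. Over all 4 libraries of each comparison left out in turn, 19 of the 31 were kept throughout, those on TGFB1, SMAD7 and TGFBI in all 4 knockdowns among them. Of the 97 list genes, 22 were higher and 10 lower in YAPi, of 79 with an adjusted p. The split was 27 and 16 of 81 in TAZi, 32 and 12 of 85 in YAPi_TAZi and 28 and 12 of 79 in TEADi. The shares of all genes by direction, given above, stand beside these counts. A fit without replicate 1 leaves a lone knockdown library, so its list counts are not set beside these. PMEPA1 and SKIL, feedback genes of the pathway, were higher in all 4 knockdowns, by 2.46 to 3.35 and 2.65 to 3.92 on the log2 scale, and LTBP4 was lower in all 4, with log2 changes of -3.23 to -2.77. SKI, of the same list as SKIL, was lower in YAPi (-1.54), TAZi (-2.22) and TEADi (-2.1).

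**Figure D4:**
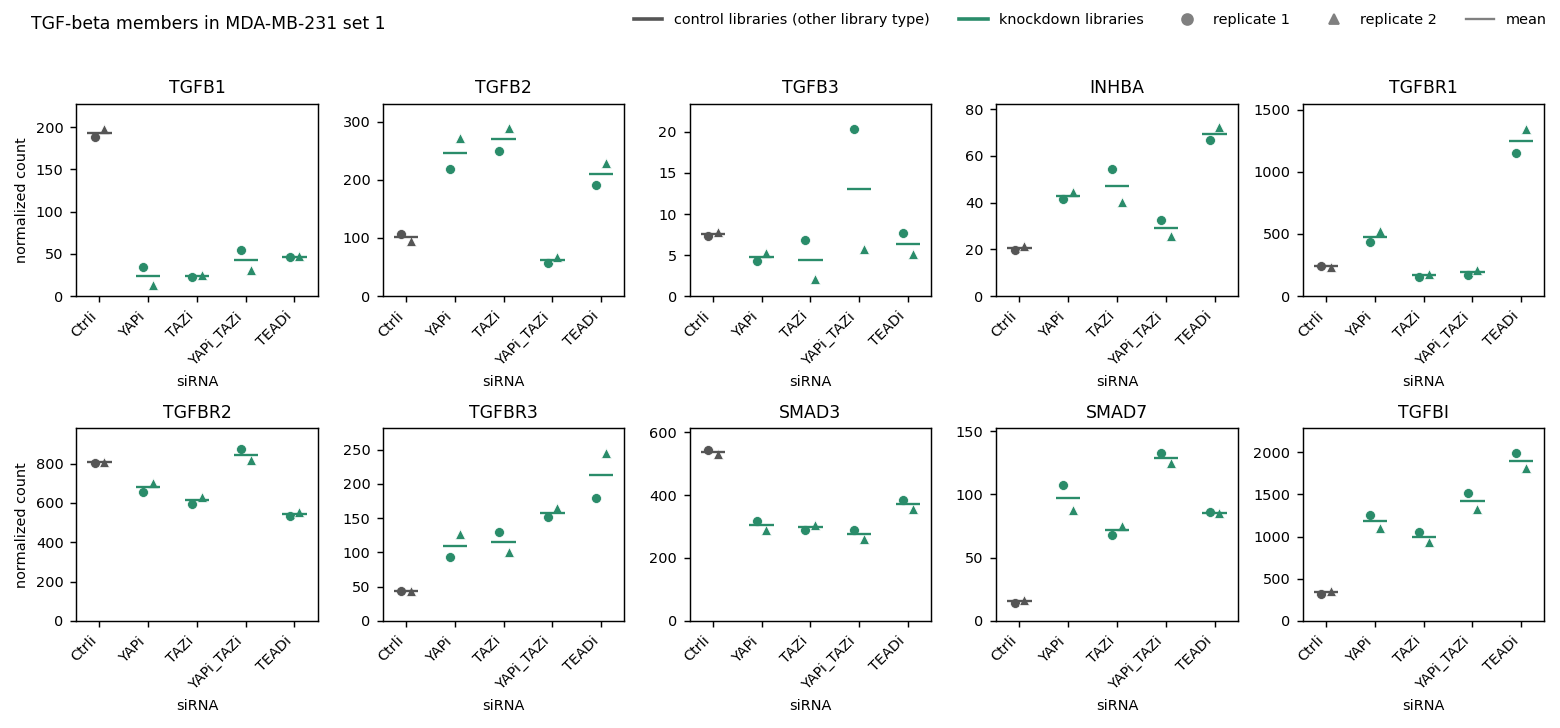
Normalized counts of the 10 members in the 10 libraries of MDA-MB-231 set 1, with controls in grey, knockdowns in green, circles and triangles for replicates 1 and 2 and bars for the mean of 2. The controls differ from all knockdowns in TGFB1, SMAD3, SMAD7, TGFBR3 and TGFBI, whereas TGFB2 is low in YAPi_TAZi and TGFBR1 high in TEADi among the knockdowns.

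The knockdowns of set 1 were also compared with each other, which leaves out the controls and their library type. Each was set against the other 3, with the replicate number as a block. TGFB2 was lower in YAPi_TAZi and TGFBR1 was higher in TEADi, and no other member was called. This fit takes the other 3 siRNAs as 1 group, and with each knockdown as its own group 13 member tests were called, an alternative chosen after seeing the data. Among these were TGFBR1 in TAZi (log2 change -1.54, adjusted p = 9.72e-33), TGFBI in TEADi (0.68, 1.24e-24) and TGFB2 in TAZi (0.88, 1.81e-07). Calls over all genes rose in that fit as well, by the totals given at the end, so the 13 say little about these members by themselves. TGFB2 was at 57.1 and 67.2 in YAPi_TAZi and at 191 to 289 in the other 6 libraries, a log2 change of -1.96 (SE 0.26, adjusted p = 4.2e-11), where 1.13% of all genes were called. It was thus lower with both siRNAs than with YAPi (219 and 272) or TAZi (250 and 289) alone. This call was kept without any 1 of the 8 libraries. TGFBR1 was at 1149 and 1347 in TEADi and at 155 to 525 in the other 6, a log2 change of 2.16 (SE 0.45, adjusted p = 0.00017), where 1.87% of all genes were called. TGFBR1 also split the others, at 432 and 525 in YAPi but 155 to 213 in TAZi and YAPi_TAZi. Its call was lost without either TEADi library (log2 changes of 2.14 and 2.19, adjusted p = 0.102 and 0.1) or either YAPi_TAZi library (2.06 and 2.07, 0.0354 and 0.038), and with edgeR (2.15, 0.0385), so the change kept its size while the adjusted p rose.

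When replicate 1 was left out of all 4 knockdowns, which leaves 1 library against 3 and assumes that the lone library varies as the others do, neither call was kept. The values were near the first ones, a log2 change of -1.98 for TGFB2 in YAPi_TAZi (adjusted p = 0.0103) and 2.14 for TGFBR1 in TEADi (adjusted p = 0.0117). TGFBI in TEADi, at 1991 and 1811 against 940 to 1521 in the others, had a log2 change of 0.67 (adjusted p = 0.018) over all 8 libraries, and was called without either YAPi_TAZi library (0.73 in both, adjusted p = 0.00257 and 0.00413). In YAPi and TAZi, where 0.619% and 0.32% of all genes were called, DESeq2 and edgeR called 0 members and an unadjusted p under 0.05 was reached by 0 and 2 of 10. Of the list genes with an adjusted p, SKIL and TNC were higher in TEADi (log2 changes of 1.01 and 1.26), and CCN2 was lower (-2.88) and FN1 higher (1.78) in YAPi_TAZi.

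In MDA-MB-231 set 2, no member was called in JUNBi or STAT3i. In JUNBi 3.41% of all genes were called, and DESeq2 gave 0 members, 2 at an unadjusted p under 0.05, and edgeR gave 0. In STAT3i 0.497% were called, and DESeq2 and edgeR gave 0, none at an unadjusted p under 0.05. Only 9 of the 20 tests had an adjusted p, since DESeq2 filters out genes of low count. TGFBR2 was at 305 and 132 in Ctrli and at 448 and 499 in JUNBi (log2 change 1.12, SE 0.35, adjusted p = 0.026). The 2 Ctrli libraries stood far apart in this gene, and the JUNBi libraries lay above both. TGFB2 was at 80.4 and 82.4 in Ctrli and at 145 and 167 in JUNBi (log2 change 0.94, SE 0.40, adjusted p = 0.13). With the counts of the overlapping TGFB2-OT1 added, these became 162 and 127 in Ctrli and 269 and 288 in JUNBi. TGFBI was at 2822 and 2084 in Ctrli and at 2815 and 3247 in JUNBi, and the groups overlapped. Without Ctrli replicate 3, the library at 305, the control is the lone library at 132, whose spread is then taken from the knockdown pair. TGFBR2 passed the threshold there in JUNBi (log2 change 1.85, adjusted p = 3.4e-06) and in STAT3i (1.44, 0.00322), which is no support for a change, since the library left out is the one that gave the controls their spread.

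JUNB knockdown thus had TGFB2 at higher means in ER-Src and in set 2, but TGFBI lower in ER-Src TAM and not in set 2. The difference of the JUNBi effect between set 2 and ER-Src TAM, tested as an interaction, was called for 1 of 10 members against 0.959% of all genes. For TGFBI it was 1.23 on the log2 scale (SE 0.23, adjusted p = 3.5e-05). Relative to the mean of their own controls, TGFBI was at 0.483 and 0.528 in the ER-Src TAM libraries and at 1.15 and 1.32 in set 2. With ER-Src ETH in place of TAM, where the ratios were 0.690 and 0.879, the interaction was 0.62 (adjusted p = 0.317). It was lost without Ctrli TAM replicate 2 (log2 change 1.15, adjusted p = 0.0104) and with edgeR (adjusted p = 0.0816), and line and library type cannot be told apart in it. For STAT3i, with 1.43% of all genes called, DESeq2 gave 0 members, 2 at an unadjusted p under 0.05 (INHBA and SMAD3), and edgeR gave 0. INHBA, at 25.1 and 64.9 in set 2 Ctrli and 18.6 and 23.0 in STAT3i, came nearest with SMAD3, at -2.01 (adjusted p = 0.08) and 0.98 (adjusted p = 0.053) on the log2 scale. Without set 2 Ctrli replicate 3, which again leaves a lone control library, the terms on INHBA in STAT3i (-2.56, adjusted p = 0.000911) and TGFBR2 in JUNBi (1.38, adjusted p = 4.2e-05) were called.

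**Figure D5:**
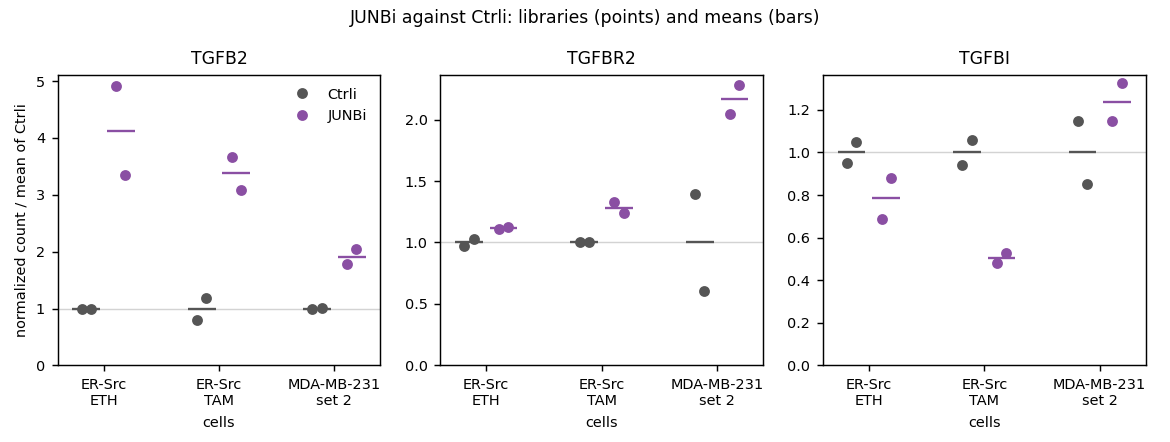
Normalized counts of TGFB2, TGFBR2 and TGFBI in Ctrli and JUNBi libraries (points, with bars at the mean of 2), each divided by the mean of the Ctrli libraries of the same cells. TGFB2 lies above 1 in JUNBi in all 3 settings, and TGFBI lies near 0.5 in ER-Src TAM but above 1 in set 2.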

How the data were processed

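Per the paper's methods and the labels, RNA was made into libraries with the TruSeq Ribo Profile kit and sequenced on a HiSeq 2000, and the authors aligned trimmed reads with STAR to GENCODE version 30 transcripts (up to 20 alignments kept, build hg38) and estimated expression with RSEM. Tool versions are not given in the sources used here. The deposited values are expected counts per gene, with TPM and lengths that the authors' RSEM run gave beside them. Counts were rounded to whole numbers, and 60725 Ensembl genes of 61471 identifiers entered the fits, 746 others being left out; 93.1% of the former had a symbol.

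The members and lists were chosen with earlier results of these data known. Each comparison was fitted on its own groups with DESeq2 1.42.0 (R 4.3.3) at its defaults over all genes, with Benjamini-Hochberg adjustment and a call at an adjusted p under 0.01, the threshold the study used. The set 1 YAPi_TAZi fit took a local dispersion trend. The comparison of set 1 knockdowns with each other carried the replicate number as a block. Normalized counts use size factors of the whole set. Comparisons that share a control group are not independent. Alternatives were edgeR 4.0.16 (quasi-likelihood test), TMM size factors, offsets from effective lengths, a mean count of at least 10, 1 fit over all groups of a set, the replicate number as a block, controls of both sets, ER-Src ETH in place of TAM, and each library left out; 2 further alternatives for set 1, each knockdown as its own group and all replicate 1 knockdown libraries left out, were chosen after seeing the data. The fits were tested on simulated counts. Named list genes are at most the 3 called genes of a list with the largest change in a comparison. The shallowest library, with 1411304 counts, limits what can be seen there. The values of a list gene withheld from this text are not reported here.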

Additional observations from a re-analysis of the deposited data

Results flagged for a closer look

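The effect of JUNB knockdown on TGFBI differed between MDA-MB-231 set 2 and ER-Src TAM by a test of the difference itself. The interaction was 1.23 on the log2 scale (SE 0.23, adjusted p = 3.5e-05), with TGFBI lower in 2 of 2 JUNBi libraries of ER-Src TAM and above the mean of the controls in 2 of 2 of set 2. The call was lost with edgeR (adjusted p = 0.0816), without Ctrli TAM replicate 2 (log2 change 1.15, adjusted p = 0.0104) and with ER-Src ETH in place of TAM (0.62, adjusted p = 0.317), so a difference between the lines is not shown. The line, the TAM treatment and the type of library differ together between these settings and cannot be told apart, and JUNB itself fell by 2.03 in one and by 2.04 in the other on the log2 scale.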

How the results depend on the processing

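Of the 50 member calls, all kept their direction except 3 with the controls of both sets and 1 with effective-length offsets. These are TGFBR1 in set 1 TAZi (0.01 on the log2 scale), TGFBR2 in set 1 TAZi (0.53) and TEADi (0.35), and SMAD3 in set 1 TEADi (0.17), and none passed the threshold there. TGFBR1 in set 1 YAPi against the other knockdowns, not called, turned to 0.48 and was called with each knockdown as its own group. The cause was not tested. By edgeR 43 of 50 calls were kept and by TMM 49, which shifted the median of all genes by -0.12 to -0.11 (log2) in set 1 against its controls and by at most 0.05 elsewhere.

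Member calls under TAM in Ctrli went from 2 to 1 with effective-length offsets and to 0 with the replicate block or any library left out. TAM knockdown calls went from 6 to 10 with 1 fit over all groups. ETH knockdown calls went from 4 to 2 with edgeR, and calls of TAM against ETH within knockdowns from 4 to 7 with 1 fit. Treatment interactions went from 0 to 1 with a mean count of at least 10 (INHBA in YAPi), with 1 fit (TGFBR3 in STAT3i) and with the block (TGFBI in JUNBi), a different gene each time. Set 1 calls went from 31 to 10 with the controls of both sets. Calls between set 1 knockdowns went from 2 to 1 with edgeR, to 0 without replicate 1 and to 13 with each knockdown as its own group, where calls over all genes rose as well. Set 2 calls went from 0 to 1 with 1 fit, and cell line interactions from 1 to 0 with edgeR or with ER-Src ETH in place of TAM. With 1 library left out at a time, the member calls ran from 4 to 6 in TAM knockdowns, 1 to 5 in ETH knockdowns, 2 to 5 within knockdowns, 0 to 1 for treatment interactions, 19 to 31 in set 1, 1 to 2 between its knockdowns, 0 to 2 in set 2 and 0 to 3 between cell lines.

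The numbers 1 and 2 are shared by the groups but nothing says that they mark a common culture or day, so the block is an alternative in all but the comparisons between set 1 knockdowns. Deviations of same-numbered libraries correlated at -0.06 to 0.60 in ER-Src, -0.08 to -0.04 between set 1 knockdowns and Ctrli, and 0.48 to 0.54 among set 1 knockdowns. With the block, calls over all genes went from 976 to 619 in Ctrli, 1550 to 770 in YAPi TAM, 470 to 177 in TAZi TAM, 1167 to 655 in STAT3i TAM, 1713 to 1122 in YAPi ETH, 739 to 404 in TAZi ETH and 37 to 11 in STAT3i ETH, but from 124 to 204 for TAM in STAT3i and 46 to 100 for the JUNBi interaction, and in set 1 from 4049 to 2555 (YAPi), 5822 to 2743 (TAZi) and 4682 to 2955 (TEADi). Among members, the block called TGFBI in the JUNBi interaction (-0.62, adjusted p = 0.00837) and TGFBI lower with TAM in YAPi (-0.37, 1.17e-06) and JUNBi (-0.71, 1.06e-05), and in ER-Src it lost TGFB3 and INHBA in Ctrli and SMAD3 in STAT3i TAM (adjusted p = 0.0805, 0.0728 and 0.0302). No paired analysis was possible for set 2 because its Ctrli replicates 3 and 4 share no number with the knockdowns.

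Over all genes, edgeR gave 195 calls in TAZi TAM, 491 in TAZi ETH, 0 (from 37) in STAT3i ETH, 1 (from 421) in JUNBi ETH, 420 (from 743), 0 and 46 (from 365) for TAM in YAPi, STAT3i and JUNBi, 15 (from 78), 5 (from 71), 56 (from 221) and 0 for the interactions, 0 (from 21), 1 (from 34), 9 (from 108) and 46 (from 198) between set 1 knockdowns, 0 (from 272) and 0 (from 10) in set 2, and 10 (from 134) and 64 (from 207) between cell lines. With 1 fit these became 1752 in JUNBi ETH, 344 and 949 for TAM in STAT3i and JUNBi, 50, 19 and 128 for the YAPi, TAZi and JUNBi interactions, 3792 and 4482 (from 6792) in set 1 TAZi and YAPi_TAZi, and 554 in set 2 JUNBi. Controls of both sets gave 1222, 1183, 1651 and 1502 in set 1 and 3 and 1 in set 2. Effective-length offsets gave 12 in STAT3i ETH, 120 for the TAZi interaction, 3827 and 4115 in set 1 TAZi and YAPi_TAZi, and 13, 17 and 103 between knockdowns (YAPi, TAZi, TEADi). TMM gave 17 in STAT3i ETH, each knockdown as its own group gave 1129, 1129, 1168 and 1361, and ETH in place of TAM gave 1 for STAT3i. The share of higher calls went from 49.66% to 36.76% in TAZi ETH, 18.92% to 33.33% in STAT3i ETH and 57.14% to 30.77% in set 1 YAPi between knockdowns with effective-length offsets, and from 21.13% to 50.83% (offsets) or 40.26% (TMM) for the TAZi interaction.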
